A study of Mus musculus with 12 samples.

Results

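Tek encodes Tie2, the endothelial receptor tyrosine kinase that binds the angiopoietins. Its transcript was followed here together with 9 further genes in MEFs (mouse embryonic fibroblasts, cells of connective tissue cultured from embryos) at the start of reprogramming. The 10 genes were Tek, its relative Tie1, the ligands Angpt1 and Angpt2, the VEGF receptors Kdr and Flt1, the ligand Vegfa, and the endothelial surface genes Pecam1, Cdh5 and Emcn. They were chosen by symbol among the 55573 genes of the count table, all 10 were found there, and the set was built around Tek because Tek had been seen to rise with induction in these same libraries. The values of the 10 genes in the comparisons of induced with uninduced cells are therefore a description, and no conclusion is drawn from any test of them. Comparisons with and without vitamin B12, and between embryos in uninduced cells, were not used in that choice and were tested.

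All 12 libraries came from C57BL/6 MEFs of 3 embryos (E13.5), called clones 1, 2 and 3, and the cells of every group carried a doxycycline-inducible cassette of Oct4, Sox2, Klf4 and Myc (OSKM), the factors that can turn fibroblasts into pluripotent stem cells. The 4 groups, each with 1 library per clone, were MEF (no doxycycline, no added B12), MEF+B12 (2 µM vitamin B12), OSKM (doxycycline at 1 µg/mL) and OSKM+B12 (both), and RNA was taken after 72 h in stem cell medium. Uninduced cells received no doxycycline, so effects of the drug and of the factors cannot be told apart. The cells were whole cultures from embryos, which can hold cell types other than fibroblasts. Library titles of clone 1 carry a later year than those of clones 2 and 3, so that year and the difference between clone 1 and the others cannot be told apart.

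In blood vessels, Angpt1 activates Tie2 and steadies the vessel wall, Angpt2 is released by endothelial cells and can block or activate the same receptor, and Tie1 is a partner receptor with no high-affinity ligand of its own. Vegfa acts through Kdr (VEGFR2), the main signalling receptor, while Flt1 (VEGFR1) binds it tightly and also exists as a secreted form that holds the ligand away from Kdr. Pecam1 and Cdh5 (VE-cadherin) are adhesion molecules of endothelial junctions, and Emcn is a sialomucin of capillaries and veins. Tek is best known in endothelium, and it is also found in blood stem cells and in some macrophages.

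On GRCm38 with the GENCODE M21 annotation, Tek (ENSMUSG00000006386) spans chr4:94739289-94874976 on the plus strand, and Tie1 (ENSMUSG00000033191) lies on the same chromosome at chr4:118471191-118490061 on the minus strand. Kdr (ENSMUSG00000062960, chr5:75932827-75978458) and Flt1 (ENSMUSG00000029648, chr5:147561604-147726011) are both on the minus strand of chromosome 5. The ligands are Angpt1 (ENSMUSG00000022309, chr15:42424723-42676977, minus), Angpt2 (ENSMUSG00000031465, chr8:18690263-18741562, minus) and Vegfa (ENSMUSG00000023951, chr17:46016993-46032369, minus). The junction genes are Pecam1 (ENSMUSG00000020717, chr11:106654217-106750628, minus), Cdh5 (ENSMUSG00000031871, chr8:104101625-104144511, plus) and Emcn (ENSMUSG00000054690, chr3:137341067-137432185, plus). All 10 are protein-coding. Of the 10, Angpt1 alone has an exon overlapped by a gene on the other strand (Gm17473), and the libraries were counted by strand. At most 2.11% of the 31-base words of any of the 10 genes, the value of Pecam1, also occur in transcripts of other genes.

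The promoters of both receptor pairs are shown because, within each pair, one gene was abundant in these fibroblasts and the other was low. They are RefSeq sequences on GRCm38.p6, from 250 bases before to 50 bases after the start site, which exist in the table used for 6 of the 10 genes. The Tek window is chr4:94739039-94739338 (plus), the Tie1 window chr4:118489800-118490099 (minus), the Flt1 window chr5:147725962-147726261 (minus) and the Kdr window chr5:75978406-75978705 (minus), each printed 5′ to 3′ on its gene's strand. Capitals mark matches, on either strand, to ATGCAAAT (octamer), ACAAAG (SOX), GGGCGG (KLF or SP), CACGTG (E-box), GGAAGT (ETS) and ACGTG or GCGTG (HIF), and every E-box match is also a HIF match.
Tek promoter: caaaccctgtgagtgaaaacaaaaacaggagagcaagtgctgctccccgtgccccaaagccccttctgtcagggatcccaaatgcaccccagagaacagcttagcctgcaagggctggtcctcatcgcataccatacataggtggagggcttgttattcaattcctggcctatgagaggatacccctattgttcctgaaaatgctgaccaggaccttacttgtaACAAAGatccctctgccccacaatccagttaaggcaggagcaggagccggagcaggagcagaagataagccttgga
Tie1 promoter: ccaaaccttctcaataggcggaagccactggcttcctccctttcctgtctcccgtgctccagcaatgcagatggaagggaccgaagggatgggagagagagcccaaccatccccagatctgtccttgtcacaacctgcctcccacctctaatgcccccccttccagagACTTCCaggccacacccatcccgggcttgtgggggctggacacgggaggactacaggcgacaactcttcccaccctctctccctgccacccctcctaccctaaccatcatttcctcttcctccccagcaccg
Flt1 promoter: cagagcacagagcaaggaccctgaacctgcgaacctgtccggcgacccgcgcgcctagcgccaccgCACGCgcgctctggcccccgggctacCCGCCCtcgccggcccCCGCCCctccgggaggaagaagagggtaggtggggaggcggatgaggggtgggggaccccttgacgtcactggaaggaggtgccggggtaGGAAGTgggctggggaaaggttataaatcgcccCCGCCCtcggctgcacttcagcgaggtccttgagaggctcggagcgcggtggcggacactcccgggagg
Kdr promoter: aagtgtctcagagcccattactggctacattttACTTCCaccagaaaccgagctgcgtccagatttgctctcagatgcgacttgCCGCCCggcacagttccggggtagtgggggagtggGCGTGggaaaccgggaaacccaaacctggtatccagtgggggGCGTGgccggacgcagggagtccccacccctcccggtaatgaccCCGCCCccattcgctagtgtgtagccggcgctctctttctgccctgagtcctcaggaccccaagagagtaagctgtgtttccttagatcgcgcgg
The Tek window held 1 SOX match, 26 bases before the start site, and no match to the other letters. The Tie1 window held 1 ETS match. Flt1 held 3 KLF or SP matches, 1 ETS match and 1 HIF match, and Kdr held 2, 1 and 2. Of 32851 windows of this length, 18.7% held a SOX match, 35.7% a KLF or SP match, 23.8% an ETS match, 43.8% a HIF match, 7.15% an E-box and 1.74% the octamer. These matches are descriptions of the letters and not binding sites.

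Depth was 56971244 to 79236795 counted read pairs per library. Values are given in CPM (counts scaled to a common library total, corrected by TMM factors of 0.934 to 1.06), and 3 counts correspond to 0.0385 to 0.0520 CPM. Of the 4 factors, Pou5f1 and Sox2 passed the threshold with induction. Pou5f1, which encodes Oct4, exceeded its MEF level in OSKM by 5.65 ± 0.21 on the log2 scale (SE; adjusted p = 5.95e-07, edgeR quasi-likelihood test), and Sox2 by 4.19 ± 0.41 (adjusted p = 0.00287). Myc had 0.94 ± 0.24 (adjusted p = 0.16), with 1.25, 1.42 and 0.11 within clones 1, 2 and 3, and Klf4 had -0.16 ± 0.05 (adjusted p = 0.16), with -0.19, -0.23 and -0.06. Klf4 was thus slightly lower in the induced library of each clone, and with B12 its difference was -0.07 ± 0.05 (adjusted p = 0.51). Its mean was already 135 CPM in MEF, and a count per gene does not separate the cell's own transcripts from those of the cassette. Expression of Klf4 from the cassette was therefore not tested. Pou5f1 was at 19.3, 18.5 and 2.86 CPM in OSKM of clones 1, 2 and 3 and at 20.7, 19.0 and 2.34 CPM in OSKM+B12, so clone 3 was low in both induced groups. The OSKM library of clone 1 stood apart from the rest of its clone, with 95 of 1519 pseudogenes of at least 2 CPM more than 2-fold away from the mean of its other libraries, while each remaining library had 9 or fewer. Without it, the fitted induction difference without B12 was 1.05 for Tek, 1.26 for Cdh5, 0.32 for Vegfa and -0.48 for Flt1 on the log2 scale.

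In uninduced fibroblasts, compared per exon length (RPKM, CPM divided by exon length in kilobases), Flt1 and Tek had the highest means of the 10 genes, ahead of Vegfa and the angiopoietins, and far ahead of Kdr and the junction genes. Flt1 was at 9.11 ± 2.89 RPKM (SD, n = 3) in MEF and Tek at 8.22 ± 0.73 RPKM, with overlapping ranges. Vegfa at 5.38 ± 0.99 RPKM was below Tek with no overlap. The ranges of Vegfa and Angpt1 (4.63 ± 0.57 RPKM) overlapped, as did those of Angpt1 and Angpt2 (3.31 ± 0.98 RPKM). Below them, Kdr was at 0.433 ± 0.114 RPKM and Cdh5 at 0.219 ± 0.056 RPKM, and the step from Cdh5 down to Tie1 (0.0198 ± 0.0051 RPKM) was free of overlap. Tie1 and Pecam1 (0.0122 ± 0.0041 RPKM), which rest on 3 to 8 counts per MEF library, cannot be placed in order, and their ranges overlapped in MEF+B12. Emcn was listed at 0 in MEF. The receptor genes thus stood at very different levels within each pair. In OSKM, Tek had the highest mean at 21.4 ± 10.3 RPKM, but its range overlapped that of Vegfa (7.59 ± 3.25 RPKM), whose range overlapped that of Flt1 (6.52 ± 1.68 RPKM). The order Tek, Vegfa, Flt1, Angpt1, Angpt2, Cdh5, Kdr was the same in OSKM+B12.

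**Figure D1:**
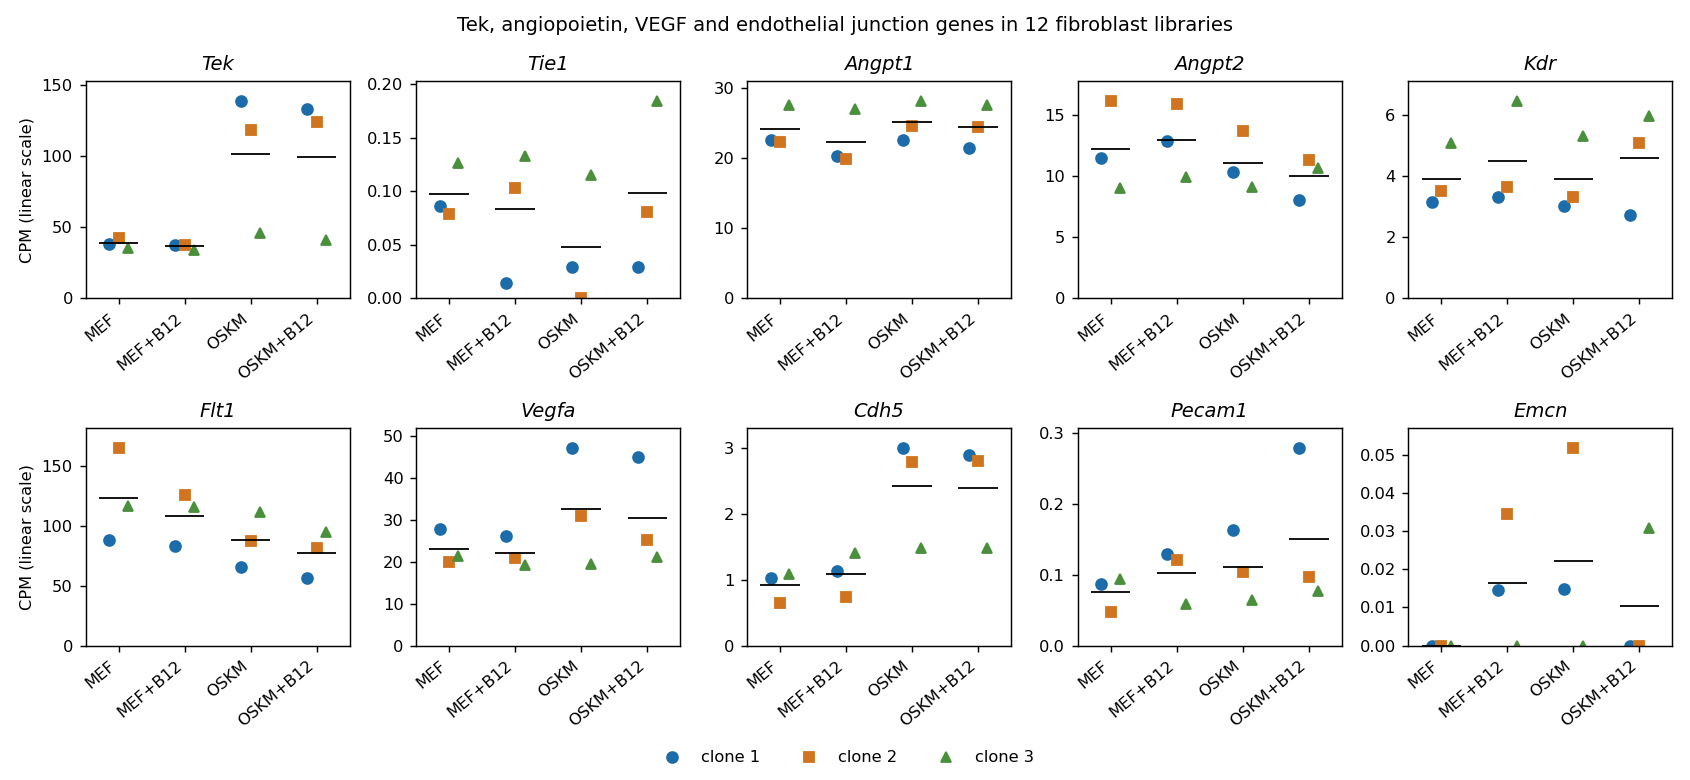
CPM (vertical axis, linear scale from 0, different for each gene) of the 10 genes in the 12 libraries, with points for clones 1 to 3 and a horizontal bar for the mean of each group. Tek and Cdh5 are higher in both induced groups, with clone 3 (triangles) the lowest induced library in each, while Tie1, Pecam1 and Emcn stay under 0.3 CPM.

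Tek was about 2.6 times as high in induced as in uninduced fibroblasts by group means, and the rise was large in clones 1 and 2 and small in clone 3. Tek was at 38.5, 42.3 and 35.5 CPM in MEF of clones 1, 2 and 3, and at 37.7, 37.7 and 34.3 CPM in MEF+B12. It was at 139, 118 and 46.1 CPM in OSKM, and at 133, 123 and 41.2 CPM in OSKM+B12. The induced library of clone 3 lay just above the highest uninduced library of the same B12 state, so the groups did not overlap in either state. Group means were 38.8 ± 3.42 CPM in MEF and 101 ± 48.7 CPM in OSKM (SD, n = 3), a ratio of 2.61, and 36.5 ± 1.97 and 99.1 ± 50.4 CPM with B12, a ratio of 2.71. Within clones 1, 2 and 3 the log2 difference was 1.85, 1.48 and 0.38 without B12 and 1.82, 1.71 and 0.26 with B12. The CPM level of Pou5f1 in the induced libraries followed the same order of clones. Its differences within clones did not, at 5.28, 5.50 and 6.55 on the log2 scale without B12 and 5.95, 6.32 and 5.70 with B12. Pou5f1 had 0 counts in MEF of clone 3, so the 6.55 rests on the prior count of 2. Sox2 had its smallest difference in clone 3, at 4.50, 4.59 and 2.53 without B12, and at 2.37 in clone 3 with B12. Myc likewise had its smallest difference in clone 3 in both states, at 1.25, 1.42 and 0.11 without B12. Klf4 was lower in the induced library of every clone in both states. The part of factor levels in the Tek values was not tested. The fitted log2 difference was 1.24 ± 0.29 without B12 and 1.29 ± 0.29 with B12. In these bulk cultures, more cells of a type and more RNA per cell cannot be told apart.

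Cdh5, a junction gene, moved like Tek at a much lower level. It was at 1.02, 0.648 and 1.09 CPM in MEF and 3.00, 2.78 and 1.48 CPM in OSKM of clones 1, 2 and 3. With B12 it was at 1.13, 0.741 and 1.40 CPM in MEF+B12 and 2.88, 2.80 and 1.47 CPM in OSKM+B12. Its induced and uninduced groups did not overlap in either state, although clone 3 exceeded the highest uninduced library with B12 only slightly. The fitted log2 difference was 1.36 ± 0.34 without B12 and 1.09 ± 0.33 with B12, and within clones it was 1.52, 2.05 and 0.43, and 1.33, 1.87 and 0.08. Counts behind these values were 41 to 202 per library. Tek and Cdh5 were the only 2 of the 7 genes that passed the count filter whose groups did not overlap, against 9.09% of the 19174 tested genes without B12 and 10.5% with B12. None of the 7 (0 of 7) passed the threshold of 0.05 in either state, where 0.073% and 0.104% of all tested genes did, and nothing is read from these counts because the genes were chosen on this contrast.

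Vegfa, the ligand of both VEGF receptors, was higher in the induced libraries of clones 1 and 2. It was at 27.9, 20.0 and 21.3 CPM in MEF and 47.2, 30.9 and 19.5 CPM in OSKM, and at 26.2, 20.96 and 19.1 CPM and 45.0, 25.2 and 21.2 CPM with B12. Clone 3 stayed between 19.1 and 21.3 CPM in all 4 of its libraries, and the groups overlapped. The fitted log2 difference was 0.43 ± 0.15 without B12 and 0.40 ± 0.15 with B12.

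Flt1, the receptor that binds Vegfa without strong signalling, was lower in each induced library than in the uninduced library of the same clone and B12 state. It was at 87.7, 165 and 117 CPM in MEF and 65.9, 87.1 and 111 CPM in OSKM, and at 82.8, 126 and 116 CPM and 56.6, 81.0 and 94.4 CPM with B12. The groups overlapped because the clones differed in level, and the difference within clones was -0.41, -0.92 and -0.07 on the log2 scale without B12 and -0.55, -0.64 and -0.30 with B12. Secreted and membrane forms of Flt1 are not separated in a count per gene. Kdr, the signalling receptor, ranged from 2.74 to 6.46 CPM over the 12 libraries, with fitted log2 differences of -0.02 ± 0.15 and 0.04 ± 0.14.

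The ligands Angpt1 and Angpt2 had smaller fitted induction differences than Tek, which was chosen for its rise. Angpt1, the activating ligand, ranged from 19.8 to 28.1 CPM over all libraries, with fitted log2 differences of 0.06 ± 0.06 without B12 and 0.14 ± 0.06 with B12. Angpt2, the context-dependent ligand, was at 11.5, 16.1 and 9.05 CPM in MEF and 10.4, 13.7 and 9.09 CPM in OSKM. It was at 12.9, 15.9 and 9.93 CPM in MEF+B12 and 8.04, 11.3 and 10.7 CPM in OSKM+B12. The fitted log2 differences of Angpt2 were -0.13 ± 0.13 and -0.35 ± 0.13, and its groups overlapped in both states.

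Tie1, Pecam1 and Emcn stayed near the limit of detection and did not pass the filter on low counts. Tie1, the partner receptor, had 5, 5 and 8 counts in MEF, 1, 6 and 9 in MEF+B12, and 2, 0 and 9 in OSKM, while OSKM+B12 had 2, 5 and 12. Pecam1 had 5, 3 and 6 counts in MEF, 9, 7 and 4 in MEF+B12, and 11, 6 and 5 in OSKM, while OSKM+B12 had 19, 6 and 5. Emcn had 9 counts over the 12 libraries and at most 3 in any of them. At this depth no difference in these genes was detectable, and the induced groups overlapped the uninduced groups.

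**Figure D2:**
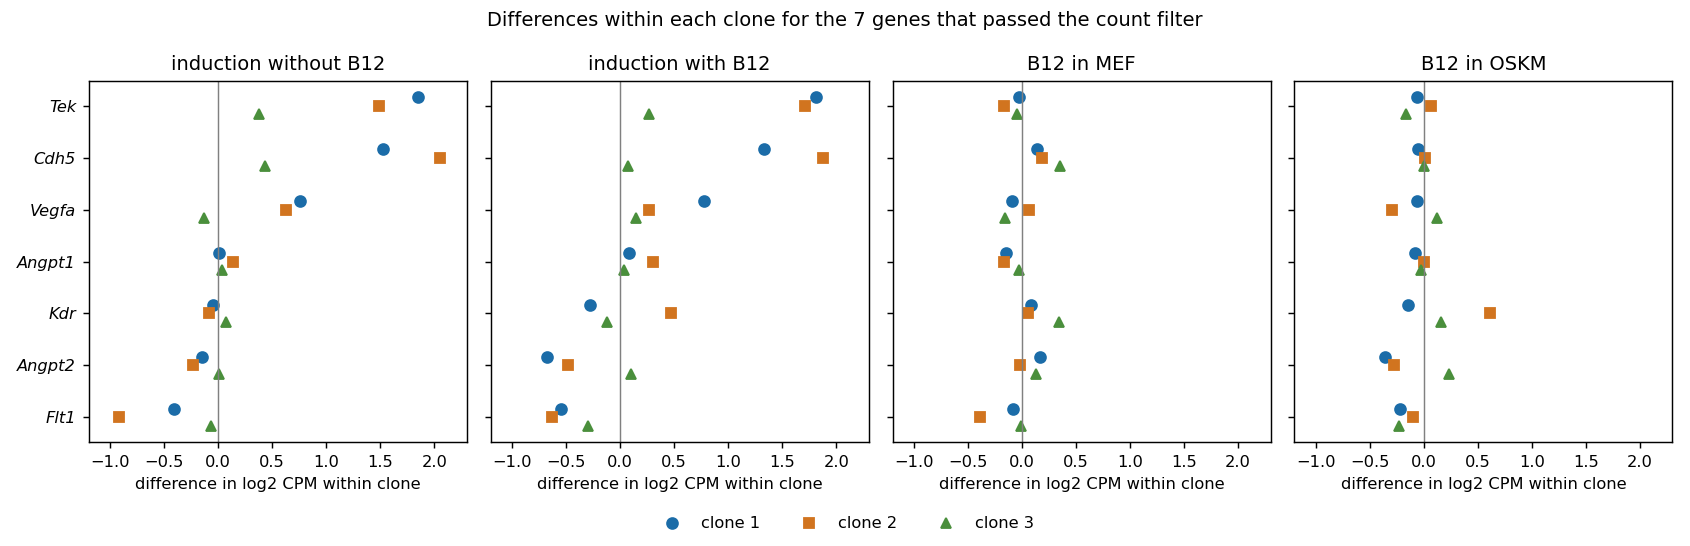
Differences in log2 CPM within each clone (horizontal axis) for the 7 genes that passed the count filter, in the comparisons of induced with uninduced cells and of cells with and without B12. The induction differences of Tek run from 0.26 to 1.85 with clone 3 nearest to 0, whereas those of Tek with B12 lie between -0.17 and 0.06.

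The genes whose pattern was most like that of Tek were Cd34, Krt14, Meox2, Pi16 and Akr1c14. Likeness was the Pearson correlation of log2 CPM over the 12 libraries after the mean of each clone was subtracted, among 12651 genes, and these 5 had r of 0.998, 0.998, 0.997, 0.996 and 0.996. The libraries share clones, and the same induced libraries of clones 1 and 2 are high for each gene, so the correlations are a description. Cd34, a surface sialomucin of blood progenitors, endothelium and some fibroblasts, was at 251, 288 and 251 CPM in MEF and 511, 519 and 286 CPM in OSKM. Krt14, a keratin of basal epithelium, was at 0.658, 0.538 and 0.331 CPM in MEF and 7.97, 3.77 and 0.462 CPM in OSKM. Pi16, a gene known from fibroblasts of the adventitia, was at 10.3, 16.2 and 17.9 CPM in MEF and 143, 152 and 22.8 CPM in OSKM. Each of these genes was thus high in induced clones 1 and 2 and nearer to its uninduced level in clone 3. Meox2, a homeobox gene of mesoderm, had log2 differences of 0.89, 0.77 and 0.17 in clones 1, 2 and 3 without B12, and Akr1c14, a steroid-metabolising aldo-keto reductase, had 1.22, 1.21 and 0.37. Among the 10 genes, Cdh5 had r = 0.961 with Tek, Vegfa 0.924 and Angpt1 0.658, while Kdr had -0.003, Angpt2 -0.80 and Flt1 -0.86, all over 12 libraries.

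**Figure D3:**
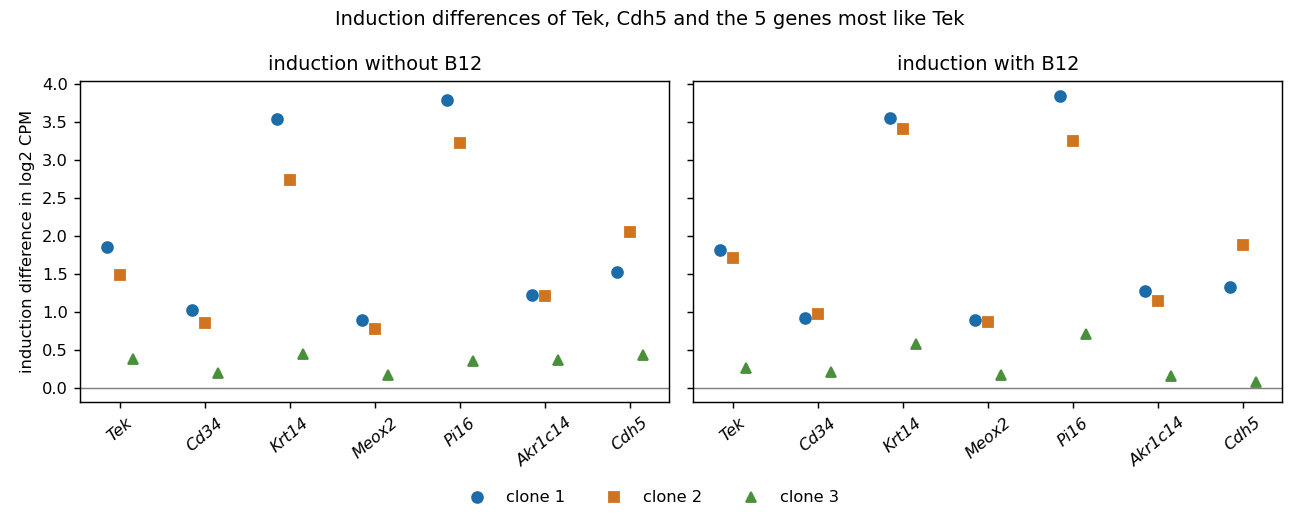
Differences in log2 CPM between induced and uninduced cells within each clone (vertical axis) for Tek, the 5 genes most like it and Cdh5, without and with B12. In every gene shown clone 3 (triangles) lies below clones 1 and 2, at 0.08 to 0.70.

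Uninduced cultures of the 3 embryos already differed in these genes. In the 6 MEF and MEF+B12 libraries, all 7 of the genes tested passed the threshold for a difference between clones (edgeR quasi-likelihood test with B12 as a term, adjusted over 18935 genes), against 34.7% of all genes tested. Both libraries of a clone come from 1 embryo, so this test compares these 3 cultures only. Angpt2 was lowest in clone 3 (9.05 and 9.93 CPM) and highest in clone 2 (16.1 and 15.9 CPM; adjusted p = 0.00044). Kdr was highest in clone 3 at 5.08 and 6.46 CPM, against 3.14 to 3.65 CPM in clones 1 and 2 (adjusted p = 0.0016). Flt1 was lowest in clone 1 at 82.8 and 87.7 CPM (adjusted p = 0.00078), and Angpt1 was highest in clone 3 at 26.9 and 27.5 CPM (adjusted p = 0.0017). These 4 genes stood apart by clone without overlap between that clone and the others. Vegfa was highest in clone 1, also without overlap, at 27.9 and 26.2 CPM against 19.1 to 21.3 CPM in clones 2 and 3 (adjusted p = 0.0024). Tek and Cdh5 passed narrowly, with adjusted p = 0.045 and 0.033. Uninduced Tek was lowest in clone 3 at 34.3 and 35.5 CPM, a small step beside its induced values. It did not overlap clones 1 and 2, at 37.7 to 42.3 CPM. Uninduced Cdh5 was lowest in clone 2 at 0.648 and 0.741 CPM, likewise without overlap. With DESeq2, 5 of 7 passed, against 21.6% of all genes tested, and the calls of Tek and Cdh5 were lost. Without clone 1, 4 passed (Angpt1, Angpt2, Kdr and Flt1), without clone 2, 6 passed (Cdh5 lost), and without clone 3, 3 passed (Angpt2, Flt1 and Vegfa). The shares of all genes tested also shifted, to 8.2% without clone 1, 41.6% without clone 2 and 24.6% without clone 3.

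B12 moved none of the tested genes of the set past the threshold, in induced or uninduced cells. In OSKM 0 of 7 passed, where 1.06% of all tested genes did, in MEF 0 of 7 passed against 1.38%, and for the average over both states 0 of 7 passed against 3.84% (edgeR quasi-likelihood test). The groups with and without B12 overlapped for all 7, whereas 7.53% of tested genes in OSKM and 9.39% in MEF had groups free of overlap. None had an unadjusted p under 0.05 in any of these comparisons, and DESeq2 also called 0. Averaged over both states, the median log2 fold change of the 7 was -0.06, beside -0.01 over all genes tested.

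For Tek the average log2 fold change with B12 was -0.06 ± 0.20, with a 95% interval of -0.51 to 0.39 (adjusted p = 0.92). Both the direction and the size varied by clone, at -0.06, 0.06 and -0.16 in OSKM and -0.03, -0.17 and -0.05 in MEF for clones 1, 2 and 3. The interval for Cdh5 was likewise wide, at -0.39 to 0.64 around 0.12. The ligands were bounded more closely. Angpt1 had -0.08 with an interval of -0.17 to 0.02, Angpt2 -0.02 with -0.22 to 0.19, and Vegfa -0.08 with -0.31 to 0.16. The VEGF receptors had the largest average differences of the set. Flt1 was lower with B12 in 6 of 6 pairs of libraries, by -0.18 ± 0.09 with an interval of -0.38 to 0.01 (adjusted p = 0.35). Kdr had 0.20 ± 0.10 with an interval of -0.03 to 0.42 (adjusted p = 0.39) and was higher in 5 of 6 pairs. Neither difference held up against the spread between libraries.

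The difference between the B12 effects in OSKM and MEF was tested as an interaction. It passed the threshold for 0 of 7 genes of the set and for 0% of all tested genes (edgeR), of which 273 had an unadjusted p under 0.05. DESeq2 also called 0. For Tek the interaction was 0.04 ± 0.41 on the log2 scale, with an interval of -0.85 to 0.94, so a change of the B12 effect by a sizeable factor was not detectable in Tek at this number of clones.

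Of 10 further genes of the angiopoietin and Tie pathway, all were tested and 1, Dok2, passed with B12. Dok2 encodes a docking protein that binds activated Tie2 and is also abundant in blood cells. It was at 9.73, 4.13 and 3.42 CPM in MEF and 18.4, 11.3 and 7.61 CPM in MEF+B12. In OSKM it was at 7.28, 4.32 and 3.48 CPM, and in OSKM+B12 at 13.8, 9.30 and 7.87 CPM. Dok2 was higher with B12 in all 6 pairs of libraries, by 1.11 ± 0.09 on the log2 scale for the average (adjusted p = 0.00015). The other 9 genes passed in no comparison. Among them Svep1, an extracellular matrix protein that binds Tie1, ranged from 309 to 748 CPM and Angptl4, a secreted regulator of lipoprotein lipase, from 235 to 394 CPM. Angpt4, a further Tie2 ligand, was at 12.8, 23.6 and 17.2 CPM in MEF and 6.02, 11.2 and 15.9 CPM in OSKM. Its log2 difference with induction was -0.73 ± 0.18 without B12 (adjusted p = 0.16) and -0.77 ± 0.18 with B12 (adjusted p = 0.18). None of 7 further VEGF ligands and receptors (0 of 7) passed with B12, with an average median log2 fold change of 0.03. The most abundant of them were the co-receptor Nrp2 and the ligand Vegfd, at means of 201 and 184 CPM, and 0 of 7 passed with induction.

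Several defining endothelial genes were absent or close to it, so the fibroblast label was checked against the whole endothelial list. Of 20 further endothelial identity genes, 15 were tested. The other 5 were Cldn5, Robo4, Mmrn2, Nos3 and Adgrl4, and Robo4 had 0 counts in all 12 libraries. Of 10 endothelial transcription factors 7 were tested, whereas Etv2, Sox17 and Sox18 were not, and Sox17 had 0 counts throughout. Cldn5, a tight junction gene of endothelium, had 5 counts in all. In contrast, the 9 fibroblast markers summed to 90849 to 143697 CPM per library. The summed level of the 20 endothelial identity genes ran from 517 to 747 CPM in MEF and from 540 to 944 CPM in OSKM, most of it from Cd34 and Stab1, which fibroblasts and macrophages respectively also express. Further members of these lists were present, as 10 of the 20 identity genes and 6 of the 10 factors had a mean of at least 1 CPM. Among them were Eng at 28.0, S1pr1 at 26.4, Ecscr at 21.9 and Clec14a at 20.1 CPM. The cells that these transcripts came from were not tested.

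**Figure D4:**
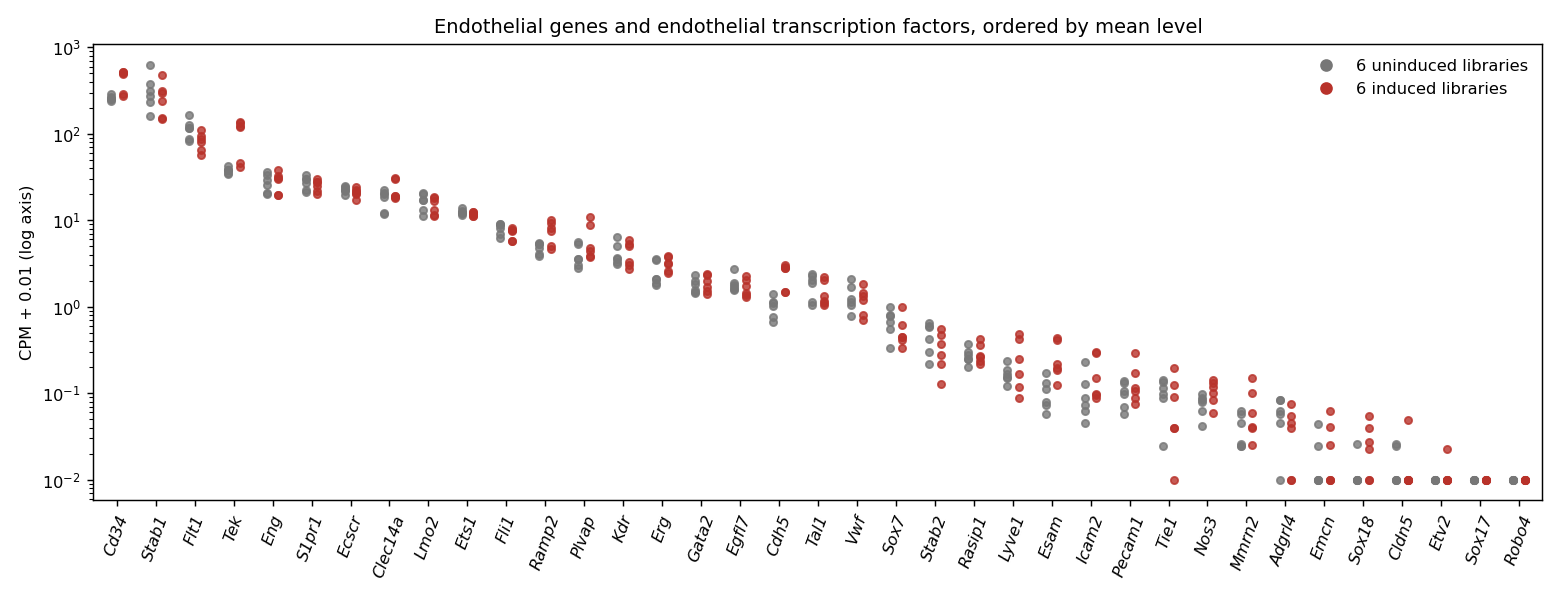
CPM plus 0.01 on a log axis for endothelial identity genes, endothelial transcription factors and 7 of the 10 genes of the set, ordered by mean level, with grey points for the 6 uninduced and red points for the 6 induced libraries. Tek and Flt1 stand among the abundant genes on the left, whereas Pecam1, Tie1, Emcn, Cldn5, Sox17 and Robo4 lie towards the right, the last 2 at 0 in every library.

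With induction, 0 of the 22 tested genes of these endothelial lists passed the threshold in either B12 state, which is read beside 0.073% and 0.104% of all genes. The most abundant identity genes, Cd34 and Stab1, had log2 differences of 0.69 ± 0.16 and -0.35 ± 0.08 without B12, and the transcription factors Lmo2 and Ets1 had -0.20 ± 0.09 and -0.05 ± 0.07. The median over the 15 tested identity genes was 0.14 without B12 and 0.04 with B12, beside -0.01 and 0.00 over all genes tested. Of the 15, 9 were higher and 6 lower without B12, and 8 and 7 with B12. Unadjusted p was under 0.05 for 7 and 6 of them (edgeR quasi-likelihood test), beside 3641 and 2854 of all 19174 genes. Among them Plvap had 0.65, 1.05 and 0.10 within clones 1, 2 and 3 without B12, and 0.68, 0.68 and 0.11 with B12. Esam, at a mean of 0.17 CPM, and the factor Erg were also higher in each clone in both states. Of the 7 tested factors, 5 were lower without B12 and 6 with B12. Mural cell markers, which label the pericytes and smooth muscle around vessels, had 0 of 8 past the threshold, with medians of -0.32 and -0.33. Of these the receptor Pdgfrb had -0.27 ± 0.07 and the smooth muscle actin Acta2 -0.11 ± 0.11 without B12. Of 11 artery and vein genes 9 were tested and 0 passed with induction or with B12. Among them the arterial ligand Efnb2 had a mean of 64.4 CPM and its venous receptor Ephb4 117 CPM.

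With B12, the endothelial identity genes that passed were Stab1, which rose, and Vwf, which fell. Stab1, a scavenger receptor of sinusoidal endothelium and macrophages, was at 381, 231 and 162 CPM in MEF and 631, 317 and 275 CPM in MEF+B12. It was at 311, 151 and 148 CPM in OSKM and 479, 298 and 243 CPM in OSKM+B12, an average log2 fold change of 0.71 ± 0.06 (adjusted p = 0.00016). Every library with B12 was above the library of the same clone without it. Vwf, the clotting factor carrier stored by endothelium and platelets, was at 1.04, 2.09 and 1.70 CPM in MEF and 0.766, 1.21 and 1.12 CPM in MEF+B12. It was at 1.19, 1.44 and 1.82 CPM in OSKM and 0.691, 1.33 and 0.783 CPM in OSKM+B12, an average of -0.66 ± 0.14 (adjusted p = 0.025). Vwf was lower with B12 in 6 of 6 pairs, but its groups overlapped, and the call was lost without any 1 clone, with adjusted p of 0.14, 0.12 and 0.26 without clones 1, 2 and 3.

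Of the endothelial transcription factors, 2 passed for the B12 average, Lmo2 and Tal1, which act together in blood and endothelial precursors. Lmo2 was at 17.2, 13.2 and 11.2 CPM in MEF and 20.6, 20.3 and 17.1 CPM in MEF+B12, and at 13.1, 11.5 and 11.2 CPM in OSKM and 18.4, 18.2 and 16.8 CPM in OSKM+B12. Its average log2 fold change was 0.54 ± 0.06 (adjusted p = 0.00071), and the call was lost without clone 2 (adjusted p = 0.084). Tal1 had 0.74 ± 0.17 (adjusted p = 0.039), lost without clone 2 (adjusted p = 0.50), without clone 3 (adjusted p = 0.24) and without the OSKM library of clone 1 (adjusted p = 0.072). Erg, a defining endothelial factor that did not pass, had 0.00 ± 0.11. Pf4, a chemokine of platelets and macrophages, was the 1 gene of 4 tested platelet genes that passed, at 1.09 ± 0.13 (adjusted p = 0.00094), lost without clone 2 (adjusted p = 0.073). The platelet gene Gp9 had 0 counts in every library.

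Macrophage markers moved with B12 in the same libraries as Dok2, Stab1, Lmo2, Tal1 and Pf4. Of 11 macrophage markers 10 rose for the B12 average, and the exception was Cx3cr1, with -0.45 ± 0.20 (adjusted p = 0.30). Fcgr1 had the largest change at 0.95 ± 0.10 (adjusted p = 0.00044), followed by Mrc1 at 0.86 ± 0.08 (adjusted p = 0.00021) and Csf1r at 0.71 ± 0.08 (adjusted p = 0.00077). Without clone 2, 1 of the 10 passed (Mrc1, adjusted p = 0.021), and Fcgr1 and Csf1r were at adjusted p of 0.061 and 0.087. Without clone 3, 7 of the 10 passed, and without clone 1 all 10. None of the 11 was at 0. Their summed level was 554 to 1032 CPM in MEF and 951 to 1540 CPM in MEF+B12, and 571 to 969 CPM in OSKM and 966 to 1254 CPM in OSKM+B12. Their part in the differences of Dok2, Stab1, Lmo2, Tal1 and Pf4 was not tested. With induction 0 of 11 passed, with medians of -0.16 and -0.24.

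**Figure D5:**
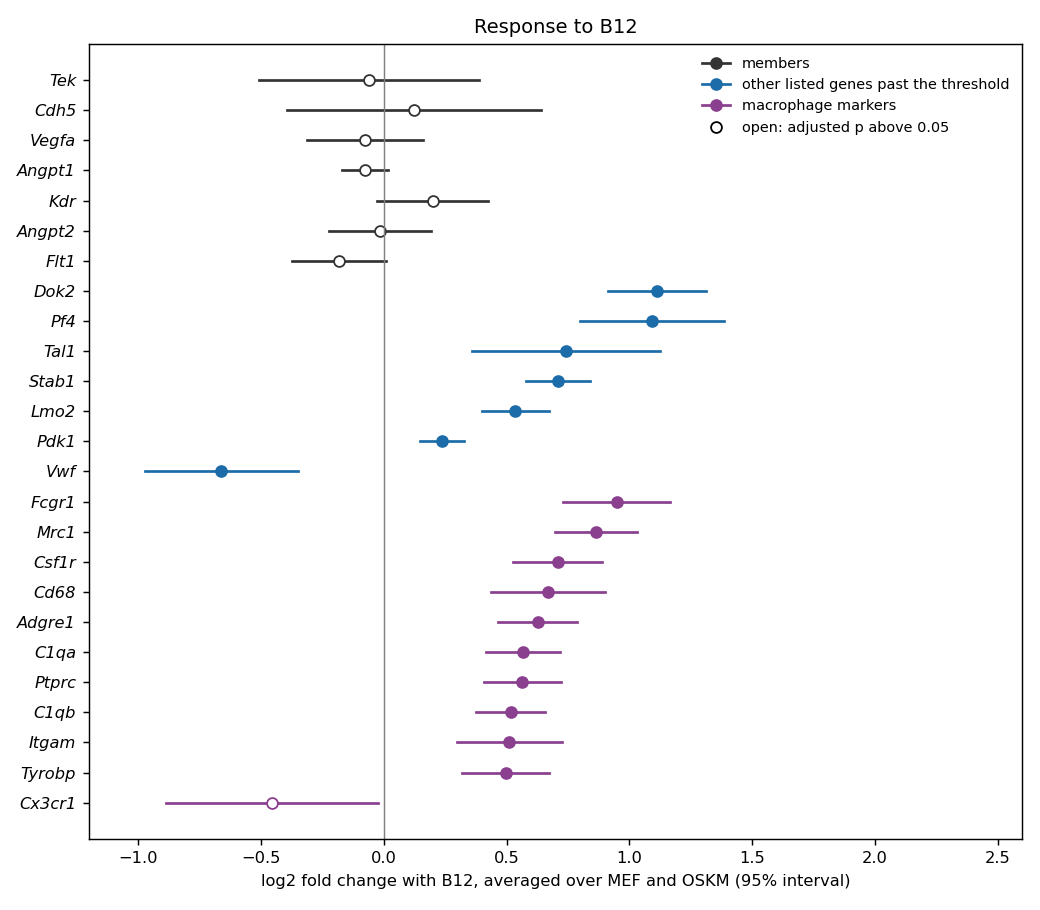
Log2 fold change with B12 averaged over MEF and OSKM (horizontal axis), with 95% intervals, for the 7 tested genes of the set (members, black), further listed genes past the threshold (blue) and macrophage markers (purple), where open circles mark an adjusted p above 0.05. The intervals of the 7 genes of the set all include 0, while Dok2, Pf4, Tal1, Stab1 and Lmo2 lie between 0.54 and 1.11 and Vwf at -0.66.

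Genes that respond to low oxygen, as Vegfa does, were examined as a further list. With induction 0 of 7 tested passed, beside 0.073% of all genes without B12 and 0.104% with B12. Of the 7, 6 were lower in each B12 state, with medians of -0.11 and -0.09. The exception was Egln3, at a mean of 0.79 CPM. Within clones 1, 2 and 3 it had 0.94, 1.67 and 0.68 without B12 and 0.68, 1.61 and -0.71 with B12. With B12 only Pdk1, a kinase that restrains pyruvate oxidation, passed for the average, beside 3.84% of all genes. Pdk1 had 0.24 ± 0.04 on the log2 scale (adjusted p = 0.0073), and the call was lost without clone 2 (adjusted p = 0.15) and without clone 3 (adjusted p = 0.14). The 9 fibroblast markers had 0 past the threshold with B12 or with induction, with a median B12 average of -0.11. The most abundant, Col3a1 and Col1a1, had B12 averages of -0.03 ± 0.06 and -0.11 ± 0.08. With induction the medians of the 9 were -0.19 without B12 and -0.12 with B12, and 5 and 6 of them were lower. Their summed level was 120024 to 143697 CPM in MEF and 90849 to 118061 CPM in OSKM. It was 113969 to 117738 CPM in MEF+B12 and 95784 to 106423 CPM in OSKM+B12.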

How the data were processed

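RNA-seq counts of 12 libraries (4 groups, 3 clones) were analysed. Per the labels and the study's methods, the authors prepared strand-specific poly(A) libraries, aligned read pairs with STAR (version 2.5.2 in the submitters' processing notes) to mm10/GRCm38, used featureCounts with the reverse-strand setting and added the flow cells of a library together. The deposited values are raw counts for 55573 genes, with 0 rows lacking a gene identifier. GENCODE M21 on GRCm38 matched 55480 identifiers, and symbols, positions and exon lengths came from it.

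Here the counts were tested with the quasi-likelihood F test of edgeR 4.0.16 (R 4.3.3) with TMM factors, filterByExpr by group (19174 genes kept, common biological coefficient of variation 8.04%), clone and group as terms, all 12 libraries in one fit, and Benjamini-Hochberg adjustment over all genes tested at 0.05. Values after ± are SE for log2 fold changes and SD for levels. Log2 CPM used a prior count of 2, and RPKM the union of exons. The block for clone follows from the design, in which all 4 groups hold 1 library from each embryo. Libraries of 1 clone deviated together from group means (correlations 0.270 to 0.687 over 18 pairs, at most 0.170 between clones in different groups). A separate fit of the 6 uninduced libraries tested clones, with B12 as a term and the filter by clone. No libraries held identical counts (0 pairs). Intervals cover 95%, and counts carry no molecular identifiers. The fitting steps were tested on simulated data.

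The 10 genes and all further lists were chosen with earlier results of these data known. Of each further list the text names up to 3 genes past the threshold with the largest change, or otherwise the 2 of highest mean CPM. The genes given as not tested, Angpt4, Erg, Cx3cr1, Esam, Plvap, Eng, S1pr1, Ecscr, Clec14a and Egln3 were named after their values were seen. Alternatives were DESeq2 1.42.0, DESeq2 size factors, library totals, no filter, at least 10 counts in every library, no replicate block, only the libraries compared, leaving out each clone, and leaving out the OSKM library of clone 1.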

Additional observations from a re-analysis of the deposited data

How the results depend on the processing

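With B12 and for the interaction, 0 genes of the set passed under every alternative run, leaving out each clone included (0 to 0). The B12 values of single genes of the set kept their direction except for 12 values close to 0, all with adjusted p of 0.92 or more. With library totals, Cdh5 in OSKM turned to 0.0063 and Angpt2 for the average to 0.0087. Leaving out a clone, or the OSKM library of clone 1, gave log2 fold changes of -0.105 to 0.177 for Tek, -0.0339 to 0.0881 for Cdh5 and -0.160 to 0.0345 for Vegfa in OSKM, of -0.126 to 0.0043 for Vegfa in MEF, and of -0.0741 to 0.0502 for Tek and -0.109 to 0.0517 for Angpt2 for the average.

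With induction, where the genes were chosen, 0 of 7 passed with edgeR. DESeq2 called 3 without B12 and 3 with B12, where 2.54% and 2.17% of all tested genes were called. Without a filter edgeR called 4 and 3, where 2.06% and 1.95% of all genes were called. Nothing is read from these counts, because the genes were chosen on this contrast. Leaving out each clone gave 0 to 4 without B12 and 0 to 5 with B12, and the highest counts came without clone 3, where 6.87% and 5.22% of all genes were called. Leaving out clones in the uninduced test gave 3 to 6, where 8.2% to 41.6% of all genes were called. The cause of these shifts was not tested.

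Without the replicate block for clone, the set had 0 genes past the threshold in all 6 comparisons, as with it, while the calls over all genes fell from 736 to 90 for the B12 average, from 204 and 264 to 0 in OSKM and MEF, and from 14 and 20 to 0 with induction. The calls of Dok2, Stab1, Vwf, Tal1, Pf4 and Pdk1 for the B12 average were lost without the block, with adjusted p of 0.11 to 0.85, and Lmo2 kept its call at 0.0495. Of the 10 macrophage markers called, Ptprc kept its call without the block (adjusted p = 0.044), while Fcgr1, Mrc1 and Csf1r were at 0.13, 0.47 and 0.13. Over all genes, leaving out clone 2 gave 0, 0 and 34 calls for B12 in OSKM, in MEF and for the average. Without the filter all 10 genes of the set were tested, and Tie1, Pecam1 and Emcn passed in no comparison.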
